A study of Mus musculus with 15 samples.

Results

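The genes described here mark or direct the skeletal and tendon lineages of connective tissue cells: *Runx1*, *Runx2*, *Sp7*, *Alpl*, *Sox9*, *Comp*, *Cilp*, *Scx*, *Mkx* and *Tnmd*. They were taken by name, and each probe of the array whose identifier is a RefSeq transcript of 1 of them was included, which gave 19 of the 56605 distinct probes for 10 of the 23462 named genes. RNA was measured in Mouse Embryonic Fibroblasts (MEFs) on 15 one-color Agilent oligonucleotide microarrays, in 5 groups of 3 arrays. The cells were the Balb/c 3T3 line clone A31, a single established clone, so that all groups share 1 genetic background and no group carries a deletion or transgene. Controls were left without cytokine, and the other groups received 1 cytokine each: TGFß1 at 5 ng/ml, TNFα at 10 ng/ml, IL-1β at 1 ng/ml, and IL-6 at 20 ng/ml with 25 ng/ml of its soluble receptor, sIL-6Rα. The study's methods give 24 h of stimulation for TNFα and TGFß1, and the exposure time of the IL-1β and IL-6 arrays is not given in the sources used here.

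Fibroblasts, osteoblasts, chondrocytes and tendon cells derive from related mesenchymal precursors, and a small number of transcription factors sets which matrix genes each of them makes. RUNX2 followed by SP7 (osterix) directs osteoblasts, SOX9 directs chondrocytes, and SCX (scleraxis) with MKX (mohawk) directs tendon cells. RUNX1, best known from blood cell development, is also made in skeletal precursors, while TGFß signalling is known both to start tendon and cartilage programs and to activate fibroblasts.

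An array is called by its group and the number that opens its label. A level is the log2 brightness of a probe minus the 75th percentile of its array, so that 0 is that percentile, and levels of different probes are not compared with each other. Where a gene had more than 1 probe, the brightest stands for it. A gene was tested if 1 or more groups had its probe well above background on all 3 arrays. It was called if the q-value was under 0.05 and the fold-change reached 1.5 in either direction (limma, 1 fit over all 15 arrays). Of the 10 genes, 8 were tested, and *Scx* and *Tnmd* were not. *Cilp* passed this filter through the TGFß1 arrays alone, and *Alpl* through the TNFα arrays alone. Counts of calls in comparisons of these groups thus include a gene admitted by its high level there. The arrays lay on 2 slides that did not hold the groups evenly. Slide 1 carried TGFß1 7 and TNFα 14 with controls 1 and 11, IL-6 arrays 3 and 8 and IL-1β arrays 5 and 10, and the other 7 arrays were on slide 2. Between 48.3% and 54.9% of the probes of an array were well above background, and no spot was saturated. All 10 fibroblast markers examined (such as *Col1a1*, *Pdgfrb* and *Vim*) were well above background on all 15 arrays. Of 7 leukocyte and macrophage markers, *Cd3e*, *Csf1r*, *Itgam* and *Cd68* were well above background on all 15 arrays, and *Ptprc* and *Adgre1* on none. Of 5 endothelial markers, *Pecam1* was above background on all 15 arrays and the other 4, *Cdh5* among them, on none. None of the 4 skeletal muscle and none of the 5 epithelial markers was above background on all arrays, and *Cdh1* and *Krt5* were on none. The epithelial marker *Krt18* was above background on 3 of 3 TGFß1, 2 of 3 control and 1 of 3 TNFα arrays. It was called lower with TNFα than with TGFß1 (−3.26, SE 0.90, q = 0.0261) and lower with IL-6 than with TGFß1 (−2.92), and was not called against control with any cytokine. The adipocyte markers *Fabp4* and *Lep* were well above background on all 15 arrays, and of 4 such markers 3 fell with TNFα (*Adipoq*, *Fabp4* and *Plin1*) and 1 with TGFß1 (*Fabp4*). Their summed brightness, in multiples of the array's 75th percentile, was 3.56 to 4.49 on control, 1.15 to 2.52 on TGFß1, 0.408 to 0.698 on TNFα, 2.75 to 5.15 on IL-1β and 3.01 to 5.61 on IL-6 arrays. Their part in the results below was not tested. In RNA from a whole culture, fewer cells of a type and less RNA per cell cannot be told apart.

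Of the 8 genes tested, 5 were called with TGFß1 in comparison with controls: *Runx1*, *Runx2*, *Cilp* and *Mkx* rose and *Comp* fell. *Cilp* was tested through the TGFß1 arrays alone, so its call is selected toward a rise. Over all 13523 named genes tested, 21.2% were called in the same comparison, 8.51% higher and 12.7% lower. With TNFα, 1 of the 8 was called, *Comp*, which fell, where 12.7% of all genes were called, 4.61% higher and 8.05% lower. With IL-1β and with IL-6, none was called, where 0.355% and 0.0961% of all genes were. At an unadjusted p below 0.05, 0 of the 8 genes passed with IL-1β and 0 with IL-6 (4.33% and 3.9% of all genes), and no other tool was run. With the slide as a block, described next, 1 of the 8 had such a p with IL-1β and 1 with IL-6, in both cases *Alpl*. In comparison with TGFß1, 4 of the 8 were called with IL-1β and 4 with IL-6 (19.4% and 19.3% of all genes), *Cilp* among them in both cases. With the slide added to the model as a block, 6 of the 8 genes were called with TGFß1 (23.0% of all genes) and 3 with TNFα (14.4% of all genes), while IL-1β and IL-6 stayed at 0 (0.510% and 0.192% of all genes). The calls added by that model were *Sox9* with TGFß1 and *Runx1* and *Alpl* with TNFα. With the runs of label numbers in the model beside the slide, the counts were 6 and 3 again (25.0% and 17.9% of all genes). The treated arrays lay wholly above or wholly below the controls for 5 of the 8 genes with TGFß1, where 45.5% of all genes did. With TNFα they did so for *Runx1*, *Runx2* and *Comp* (34.5% of all genes), leaving out *Cilp*, which was below background in both groups.

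**Figure D1:**
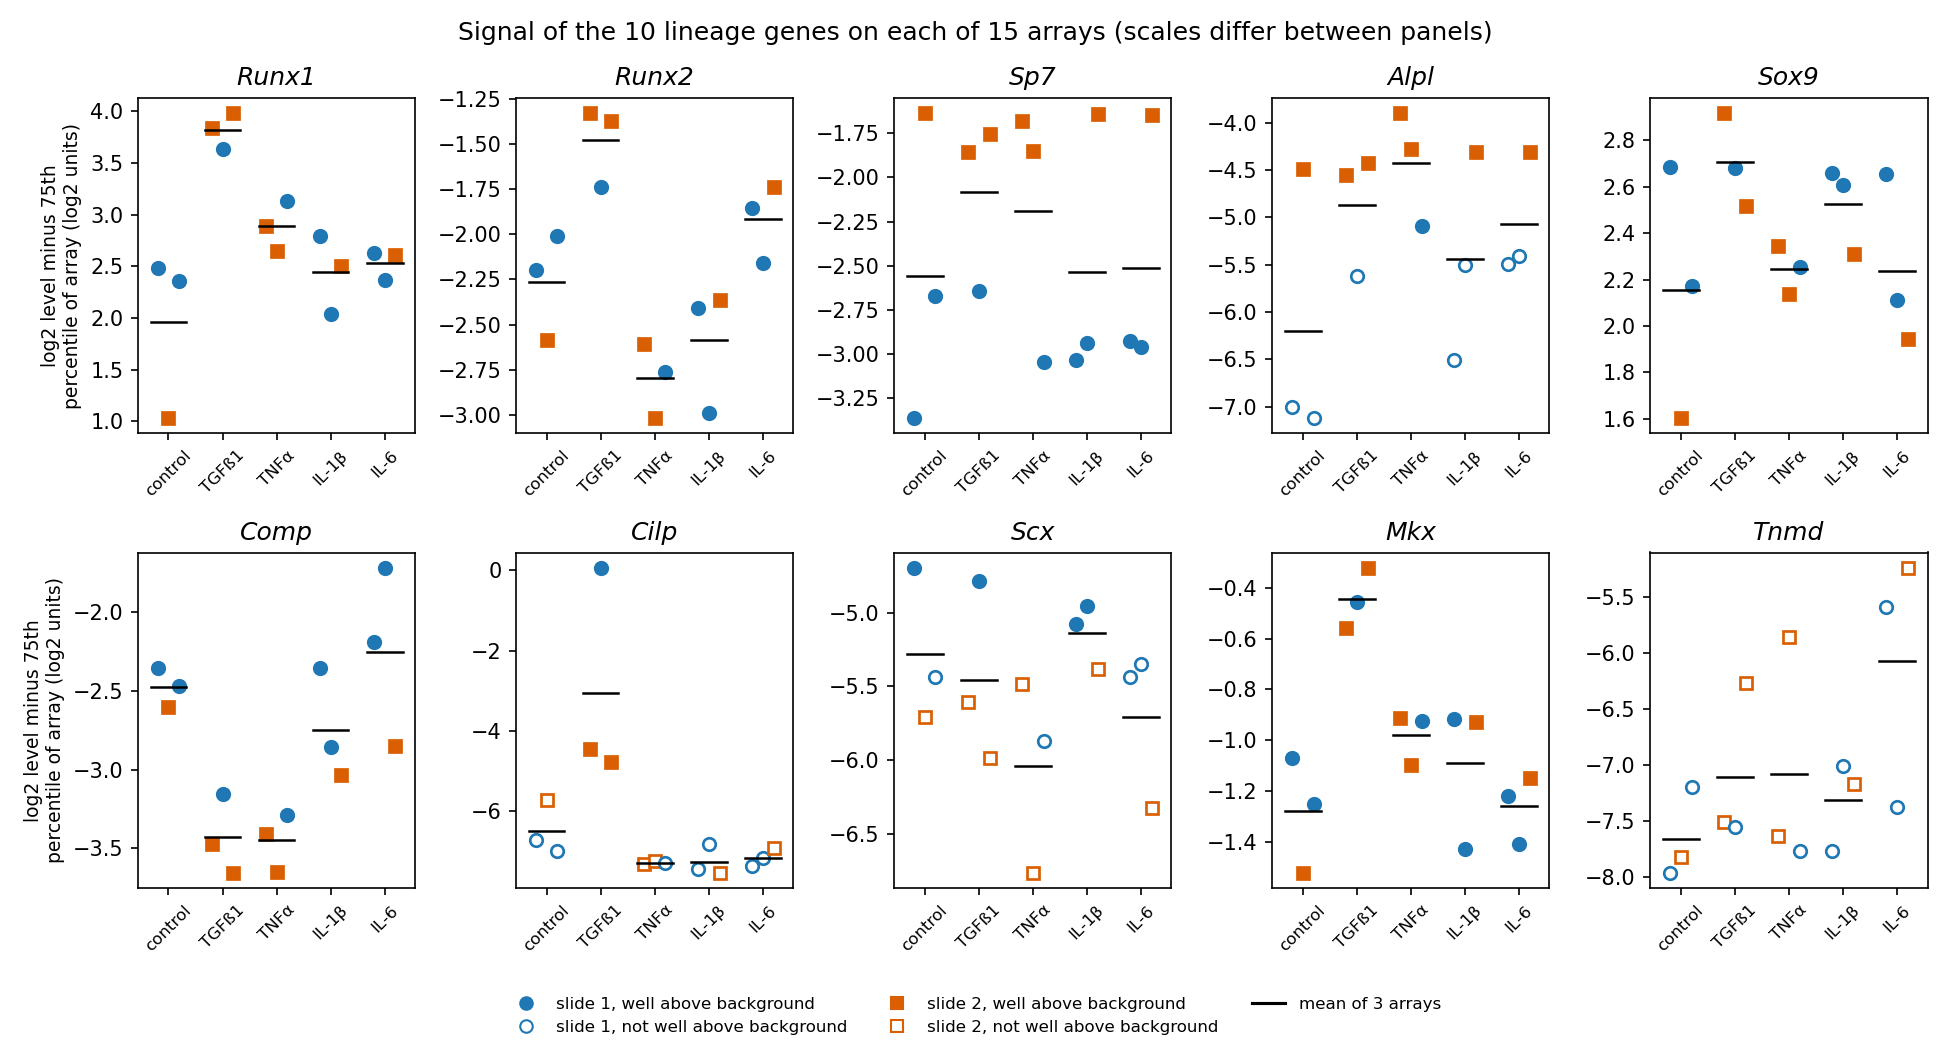
Level of each of the 10 genes (vertical axis, log2 level minus the 75th percentile of the array) on the 3 arrays of each group (horizontal axis), with circles for slide 1, squares for slide 2, open symbols where the probe was not well above background and a line at the group mean. The TGFß1 arrays of *Runx1*, *Runx2*, *Cilp* and *Mkx* lie above all control arrays, those of *Comp* below, and the squares of *Sp7* and *Alpl* lie above all circles.

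Promoter windows from RefSeq (GRCm38.p6) were read for 5 of the 10 genes: *Runx1* (2 windows), *Runx2* (1), *Tnmd* (1), *Alpl* (2) and *Cilp* (1). *Sox9*, *Scx*, *Sp7*, *Comp* and *Mkx* had no entry. The 4 windows of genes that rose together with TGFß1 are shown, as the 250 bases before the annotated start, 5′ to 3′ on the gene's strand. They were searched on both strands for the SMAD element CAGAC, the RUNX site TGTGGT and the AP-1 site TGANTCA, elements of transcription factors that act in TGFß and RUNX responses, and matches are in capitals. The first *Runx1* window is chr16:92826075-92826324 and the second chr16:92697330-92697579, that of *Runx2* is chr17:44814628-44814877, all on the minus strand, and that of *Cilp* is chr9:65264930-65265179 on the plus strand.
Runx1 window 1: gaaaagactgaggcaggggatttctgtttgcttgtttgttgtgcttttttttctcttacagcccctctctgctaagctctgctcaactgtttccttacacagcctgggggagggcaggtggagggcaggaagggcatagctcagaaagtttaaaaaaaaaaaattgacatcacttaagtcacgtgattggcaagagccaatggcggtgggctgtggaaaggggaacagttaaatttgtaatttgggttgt
Runx1 window 2: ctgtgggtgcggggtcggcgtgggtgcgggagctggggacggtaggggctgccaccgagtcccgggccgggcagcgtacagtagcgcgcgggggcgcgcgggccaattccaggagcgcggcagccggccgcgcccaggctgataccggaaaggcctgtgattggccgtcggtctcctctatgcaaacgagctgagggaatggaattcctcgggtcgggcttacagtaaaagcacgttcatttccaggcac
Runx2: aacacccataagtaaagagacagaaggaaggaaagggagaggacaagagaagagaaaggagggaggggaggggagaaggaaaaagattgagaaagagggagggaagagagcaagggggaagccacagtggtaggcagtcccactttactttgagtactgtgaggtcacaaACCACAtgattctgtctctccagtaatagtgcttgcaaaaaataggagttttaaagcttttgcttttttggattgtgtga
Cilp: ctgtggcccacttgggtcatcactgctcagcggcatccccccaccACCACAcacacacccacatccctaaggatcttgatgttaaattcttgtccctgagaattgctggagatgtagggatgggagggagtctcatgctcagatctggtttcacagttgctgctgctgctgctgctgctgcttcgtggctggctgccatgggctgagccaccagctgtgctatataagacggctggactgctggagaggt
The RUNX site matched once in *Runx2*, 80 to 75 bases before the start, and once in *Cilp*, 205 to 200 bases before the start, in both on the opposite strand (ACCACA), and in neither *Runx1* window. Over all 32851 windows of the same length, 14% held a RUNX site, 42.2% a SMAD element and 6.75% an AP-1 site. The SMAD element and the AP-1 site had no match in the 4 windows. These letters are a description of the windows only, since no binding was measured.

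Among the regulators, *Runx1* rose most clearly with TGFß1. Its level was 2.48, 1.03 and 2.36 on control arrays 1, 6 and 11 and 3.83, 3.63 and 3.98 on TGFß1 arrays 2, 7 and 12. All 3 TGFß1 arrays lay above all other 12 arrays, and control 6 stood well below the other controls. The log2 fold-change was 1.86 (SE 0.32, q = 0.00143), 3.62-fold. Within slide 1 the difference was 1.21 and within slide 2, where control 6 was the only control, 2.88. Both other *Runx1* probes were called as well, at 2.01 and 1.66, and the 3 probes followed each other across the 15 arrays (r between 0.976 and 0.983). Without control 6 the log2 fold-change was 1.39, and *Runx1* was called in each of the 6 fits that left out 1 array.

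With TNFα the level of *Runx1* was 2.89, 2.64 and 3.13 on arrays 4, 9 and 14, above all controls and below all TGFß1 arrays. The log2 fold-change against control was 0.93 (SE 0.32) and was not called (q = 0.0802). With the slide as a block it was 1.02 (SE 0.32, q = 0.0444), which passed both criteria, as did 1.04 (q = 0.00138) with slide and runs. Without control 6 it was 0.47. The direct difference of TNFα from TGFß1 was −0.93 (SE 0.32, q = 0.0743), and was called in 3 of 14 alternative settings, among them that with slide and runs (q = 0.00204). The IL-1β arrays lay between 2.04 and 2.79 and the IL-6 arrays between 2.37 and 2.63, overlapping the control arrays in both cases. The group means were thus ordered as TGFß1 (3.82 ± 0.18), TNFα (2.89 ± 0.24), IL-6 (2.54 ± 0.14), IL-1β (2.44 ± 0.38) and control (1.96 ± 0.80; all SD, n = 3). TGFß1 was called higher than IL-1β and IL-6, and the neighbours IL-6 and IL-1β overlapped. With TNFα against control, the other *Runx1* probes gave 0.95 (q = 0.0897) and 0.76 (q = 0.196), neither called. With the slide as a block they gave 1.06 (q = 0.0405), called, and 0.93 (q = 0.050005), not called. Both were called with slide and runs. On the latter probe the TNFα arrays overlapped the controls.

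*Runx2*, the regulator of osteoblast formation, rose with TGFß1, and its TGFß1 and TNFα arrays lay on opposite sides of the controls. Its level was −2.20, −2.59 and −2.01 on control arrays 1, 6 and 11, −1.33, −1.74 and −1.37 on TGFß1 arrays 2, 7 and 12, and −2.61, −3.02 and −2.76 on TNFα arrays 4, 9 and 14. The 3 groups did not overlap, although control 6 and TNFα 4 nearly met. The rise with TGFß1 was 0.79 (SE 0.21, q = 0.0163). The TNFα difference from control was −0.53 (SE 0.21, q = 0.122) and was not called. With slide and runs as blocks it was −0.55 (SE 0.083, q = 8.85e-04), under the fold-change criterion and so again not called. The difference of TNFα from TGFß1 was −1.32 (SE 0.21, q = 8.55e-04), which was called in all 14 alternative settings and in the 6 fits that left out 1 array. In that comparison 2 of the 8 genes were called, *Runx2* and *Cilp*, where 14.1% of all genes were. With TGFß1 the difference was 0.37 within slide 1 and 1.24 within slide 2, and the call was lost without control 6, TGFß1 2 or TGFß1 12 (log2 fold-changes from 0.62 to 0.92 over the 6 fits). The representing probe carries the identifier of a non-coding *Runx2* transcript. A probe of a coding transcript gave 0.83 (SE 0.20, q = 0.00941) with TGFß1 and −0.57 (SE 0.20, q = 0.0828) with TNFα. With slide and runs its TNFα difference was −0.49 (SE 0.13, q = 0.0156), also under the fold-change criterion. The remaining probe was not above background on any array.

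For IL-6, *Runx2* lay between −2.16 and −1.74, and for IL-1β between −2.99 and −2.36, both overlapping the controls. The means were ordered as TGFß1 (−1.48 ± 0.22), IL-6 (−1.92 ± 0.22), control (−2.26 ± 0.29), IL-1β (−2.59 ± 0.35) and TNFα (−2.80 ± 0.21; all SD, n = 3). The IL-6 arrays did not differ from the TGFß1 arrays past the threshold (−0.44, 95% interval −0.89 to 0.02), whereas the IL-1β arrays were called lower than the TGFß1 arrays (−1.11, SE 0.21, q = 0.00264).

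*Mkx*, a homeobox regulator of tendon, rose with TGFß1 with the smallest standard error of the 8 genes. Its level was −1.07, −1.52 and −1.25 on control arrays 1, 6 and 11 and −0.56, −0.46 and −0.32 on TGFß1 arrays 2, 7 and 12. The TGFß1 arrays lay above all 12 others, in which *Mkx* ranged from −1.52 to −0.91. The log2 fold-change was 0.83 (SE 0.16, q = 0.00252), and 0.70 and 1.08 within slides 1 and 2. It was called at this fold-change criterion in all 14 alternative settings and in the 6 fits that left out 1 array, as was *Runx1*, but at 1.78-fold it does not reach an absolute fold-change of 2. The other *Mkx* probe gave 0.90 (SE 0.22, q = 0.0116). The TNFα arrays lay at −0.91, −1.10 and −0.93, and TNFα 9 was below control 1. TNFα differed from control by 0.30 (95% interval −0.04 to 0.65, q = 0.252). TNFα was lower than TGFß1 by −0.53 with a q-value of 0.0382, but this was under the fold-change criterion. IL-1β and IL-6 were called lower than TGFß1, by −0.64 and −0.81. The group means were −0.45 ± 0.12 for TGFß1, −0.98 ± 0.10 for TNFα, −1.09 ± 0.29 for IL-1β, −1.26 ± 0.13 for IL-6 and −1.28 ± 0.23 for control (SD, n = 3), and the ranges of the last 4 overlapped from 1 neighbour to the next.

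*Sox9*, the regulator of cartilage formation, was well above background on all 15 arrays and was called with none of the cytokines. Its level was 2.68, 1.60 and 2.17 on control arrays 1, 6 and 11 and 2.92, 2.68 and 2.52 on TGFß1 arrays 2, 7 and 12. The highest control reached the TGFß1 arrays, and control 6 was again the lowest of the 15. The difference was 0.55 (SE 0.25, q = 0.128), not called. With the slide as a block it was 0.66 (SE 0.22, q = 0.0353) and passed both criteria, and it was 0.65 (q = 0.00268) with slide and runs. The differences were 0.25 within slide 1 and 1.11 within slide 2, and 0.28 without control 6. TNFα (2.14 to 2.34), IL-1β (2.31 to 2.66) and IL-6 (1.94 to 2.65) all lay inside the control range. The order of means was TGFß1 (2.71 ± 0.20), IL-1β (2.53 ± 0.19), TNFα (2.24 ± 0.10), IL-6 (2.24 ± 0.37) and control (2.15 ± 0.54; SD, n = 3), with no pair among those compared called. The other *Sox9* probe gave 0.32 (SE 0.30, q = 0.463) with TGFß1. That probe was at 0.50 (q = 0.0638) with the slide as a block and 0.49 (q = 9.31e-04) with slide and runs. Both values were under the fold-change criterion, so the call with blocks did not extend to it.

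*Cilp*, a cartilage and tendon matrix protein known to bind TGFß1, was detected on the TGFß1 arrays alone. It was not well above background on any of the other 12 arrays, whose values ranged from −7.53 to −5.71. On the TGFß1 arrays it was −4.46, 0.06 and −4.78 (arrays 2, 7 and 12), so that TGFß1 7 stood far above the other pair. The fitted difference from control was 3.42 (SE 0.93, q = 0.0183). *Cilp* was tested only because the TGFß1 arrays passed the filter, so its q-values against TGFß1 are selected toward a difference. They are given as description. Because the controls carried no signal above background, the change is given as at least 5.19-fold. TGFß1 7 sets much of that bound, which was 1.76-fold without this array. Without it the fitted difference was 1.86 and was still called, and without control 11 it was 3.16 and was not (q = 0.061). It was called in 10 of 13 alternative settings, but not with normexp background correction (1.37, q = 0.0782) or in the fits of 3 groups (q = 0.0592) and of these groups alone (q = 0.109). The difference was 6.93 within slide 1, where TGFß1 7 was the only TGFß1 array, and 1.09 within slide 2. In comparison with TGFß1, *Cilp* was at least 4.95-fold lower with TNFα, at least 5.56-fold lower with IL-1β and at least 4.48-fold lower with IL-6, and these bounds were 1.68-fold, 1.88-fold and 1.52-fold without TGFß1 7. The 4 other groups had no order, since all their values were below the background mark.

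*Comp*, cartilage oligomeric matrix protein, a thrombospondin of cartilage and tendon, was the member that fell with both TGFß1 and TNFα. Its level was −2.36, −2.60 and −2.47 on control arrays 1, 6 and 11, the tightest controls among the 8 genes tested (SD 0.12). It was −3.47, −3.15 and −3.65 on TGFß1 arrays 2, 7 and 12, and −3.41, −3.65 and −3.29 on TNFα arrays 4, 9 and 14. Both treated groups lay below all controls and overlapped each other. The log2 fold-change was −0.95 with TGFß1 (SE 0.26, q = 0.0176) and −0.98 with TNFα (SE 0.26, q = 0.0259). These comparisons share the control arrays. The direct difference of TNFα from TGFß1 was −0.02 (95% interval −0.58 to 0.54). Within slide 1 the differences from control were −0.74 and −0.88, and within slide 2 −0.97 and −0.93. With the slide as a block they were −0.81 (q = 0.00651) and −0.83 (q = 0.00965). The TGFß1 call was lost without control 1, TGFß1 2 or TGFß1 12 (−1.09 to −0.84 over the 6 fits), and the TNFα call without control 1, control 11, TNFα 4 or TNFα 9 (−1.06 to −0.88). *Comp* was called in 12 of 14 alternative settings with TGFß1 and in 11 of 14 with TNFα. Its differences there ran from −0.95 to −0.46 with TGFß1 and from −1.07 to −0.49 with TNFα.

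The *Comp* arrays of IL-6 were −2.19, −1.72 and −2.85, spread on both sides of the controls, and those of IL-1β were −2.35, −2.86 and −3.04. Neither group was called against control. The means ran from IL-6 (−2.25 ± 0.57) and control (−2.47 ± 0.12) to IL-1β (−2.75 ± 0.35), TGFß1 (−3.43 ± 0.25) and TNFα (−3.45 ± 0.19; SD, n = 3). IL-6 was called higher than TGFß1 (1.18, SE 0.26, q = 0.00641). IL-1β was above TGFß1 and above TNFα on every array, by 0.68 (q = 0.0757) and 0.70 (q = 0.148), neither of which was called. In IL-1β against TNFα, 0 of the 8 genes were called, where 6.51% of all genes were. There 1 of the 8 had an unadjusted p below 0.05.

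**Figure D2:**
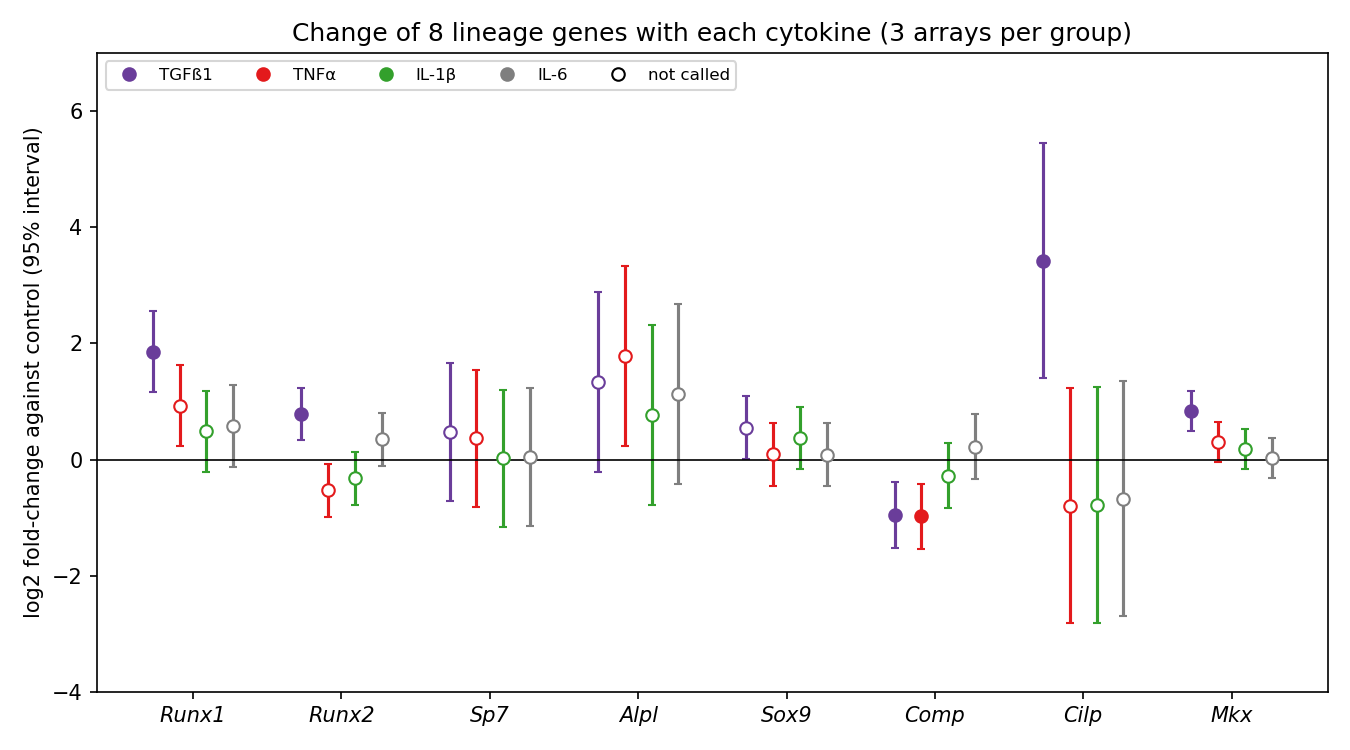
Log2 fold-change against control (vertical axis) of the 8 genes tested with each of the 4 cytokines, with 95% intervals from the limma fit over 15 arrays, and filled symbols where the gene was called. The filled symbols are those of *Runx1*, *Runx2*, *Comp*, *Cilp* and *Mkx* with TGFß1 and of *Comp* with TNFα, and the intervals of *Sp7*, *Alpl* and *Cilp* are the widest.

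*Sp7* and *Alpl*, the regulator of later osteoblasts and the phosphatase they use for mineralization, followed the slide more than the cytokine. The level of *Sp7* was −3.36 to −2.65 on the 8 arrays of slide 1 and −1.86 to −1.64 on the 7 arrays of slide 2, with no overlap. With the groups in the model the slide difference was 1.23 (SE 0.11, q = 4.77e-06), and 3.31% of the tested probes had a larger one. Control 6, on slide 2, was −1.64, while control 1 and control 11, on slide 1, were −3.36 and −2.67. The TGFß1 arrays 2, 7 and 12 were −1.86, −2.65 and −1.76, and the TNFα arrays 4, 9 and 14 were −1.68, −1.85 and −3.04. The difference from control was 0.47 with TGFß1 (95% interval −0.71 to 1.66) and 0.36 with TNFα (−0.82 to 1.55). With the slide as a block these were 0.06 (SE 0.17) and −0.04 (SE 0.17), neither called. IL-1β and IL-6 differed from control by 0.02 and 0.04. The other 2 *Sp7* probes were not above background on any of the 15 arrays, so that the probes disagree on whether *Sp7* RNA was detected.

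*Alpl* was well above background on 1 of the 8 arrays of slide 1 and on all 7 of slide 2. The slide difference was 1.51 (SE 0.22, q = 2.37e-04). Across all 13523 genes, 8.37% were called between the slides, and 9.79% did not overlap between them. Its level was −7.00, −4.49 and −7.12 on control arrays 1, 6 and 11, −4.55, −5.62 and −4.43 on TGFß1 arrays 2, 7 and 12, and −3.90, −4.28 and −5.09 on TNFα arrays 4, 9 and 14. TNFα 14 was the slide 1 array above background, and both slide 1 controls were the lowest of the 15 arrays. TNFα was the only group with *Alpl* above background on all 3 arrays, so that *Alpl* was tested because it was high there. Its TNFα tests are thus selected toward a rise. The difference of TNFα from control was 1.78 (SE 0.71, q = 0.13) and was not called. With the slide as a block it was 1.28 (SE 0.33, q = 0.0202) and was called, and with slide and runs 1.27 (q = 0.0109). Within slide 2, where all 3 arrays compared were above background, it was 0.40 and within slide 1, where the controls were below background, 1.97. With TGFß1 the difference was 1.33 (SE 0.71, q = 0.199), and 0.83 (SE 0.33, q = 0.0707) with the slide. The IL-1β arrays lay between −6.51 and −4.31 and the IL-6 arrays between −5.50 and −4.31, and in both groups the slide 2 array alone was above background. The other *Alpl* probe was not above background on any array.

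**Figure D3:**
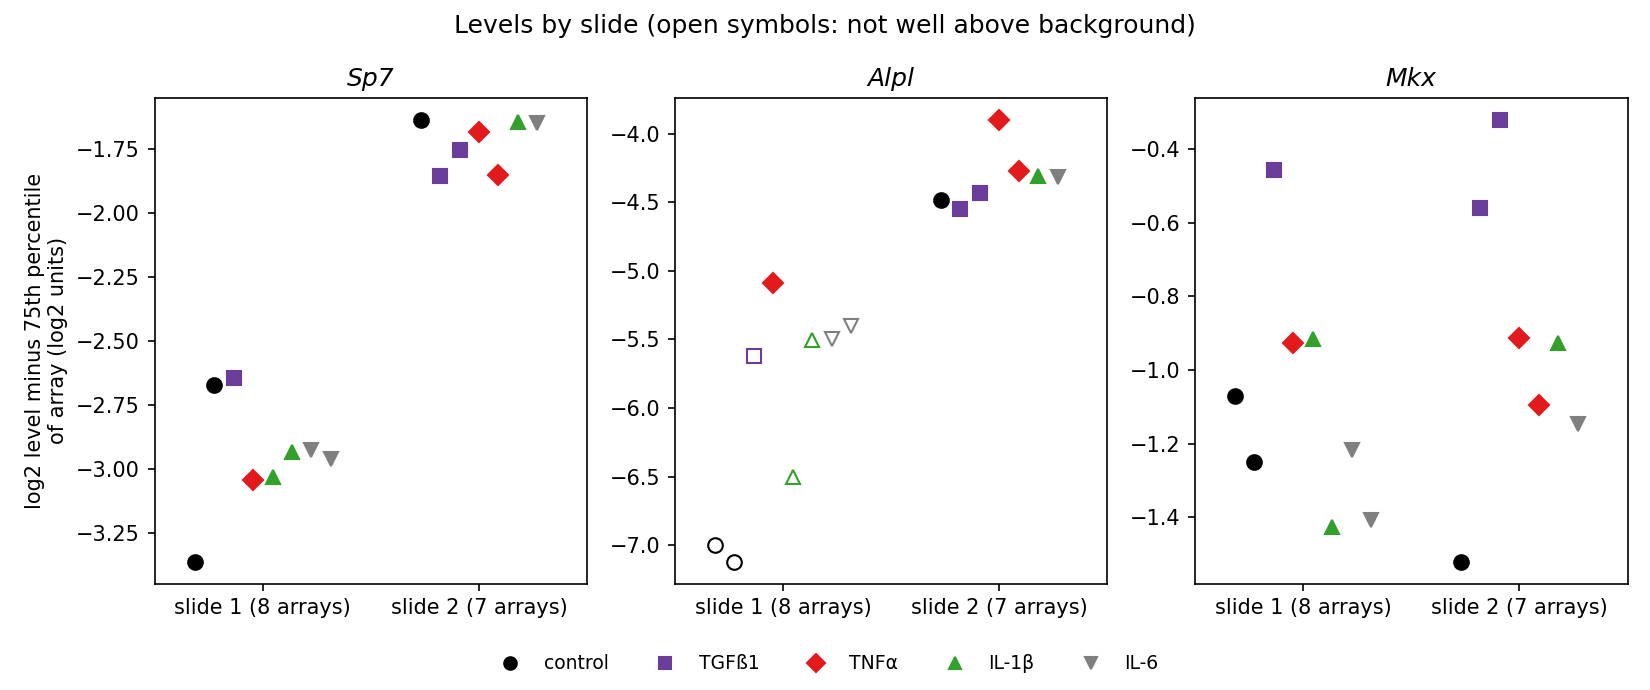
Level of *Sp7*, *Alpl* and, for comparison, *Mkx* (vertical axis, log2 level minus the 75th percentile of the array) on the arrays of slide 1 and slide 2 (horizontal axis), with a symbol for each group and open symbols where the probe was not well above background. *Sp7* lies between −3.36 and −2.65 on slide 1 and between −1.86 and −1.64 on slide 2, while the TGFß1 arrays of *Mkx* are the highest on either slide.

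*Scx*, the early regulator of tendon precursors, was at the edge of detection. It was well above background on 4 of 15 arrays, all on slide 1 (control 1, TGFß1 7, IL-1β 5 and IL-1β 10). Its level was −4.70, −5.71 and −5.44 on control arrays 1, 6 and 11, −5.61, −4.78 and −5.99 on TGFß1 arrays 2, 7 and 12, and −5.48, −6.76 and −5.87 on TNFα arrays 4, 9 and 14. The IL-1β arrays 5, 10 and 15 were −5.08, −4.96 and −5.38, and the IL-6 arrays 3, 8 and 13 were −5.44, −5.35 and −6.33. The groups overlapped the controls in all 4 cases, and no test was made. *Tnmd* (tenomodulin), a membrane protein of mature tendon, was not well above background on any array, with values between −7.96 and −5.24 that have no order.

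The patterns across arrays were compared with those of the 13486 other named genes tested, as a description. The 15 arrays share slides and groups, so that a high correlation can follow from either. The genes most like *Runx1* were *Tra2a*, *Eef1e1* and *Metap1* (Pearson's r of 0.966, 0.964 and 0.962). Those most like *Mkx* were *Bzw2*, *Ube2v2* and *Med15* (0.966, 0.962 and 0.962). For *Runx2* they were *Has2*, which makes hyaluronan, *Areg*, which encodes the growth factor amphiregulin, and *Fads3* (0.951, 0.95 and 0.948). For *Sox9* they were *Hoxd8*, *Micu3* and *Ro60* (0.924, 0.868 and 0.866). For *Comp* they were *Wdfy2*, *Lats2* and *Jak3* (0.955, 0.951 and 0.93). For *Cilp* they were *Rftn2*, *Dmp1* and *Ttll5* (0.93, 0.916 and 0.915). *Cilp* was below background on all but the TGFß1 arrays, and the weight of TGFß1 7 in these values was not tested. For *Sp7* they were *Ppp2r3d*, *Skint9* and *Fkbp15* (0.988, 0.988 and 0.983) and for *Alpl* *Olfr319*, *Zfp758* and *Nckap1* (0.936, 0.925 and 0.922). Among the members, *Runx1* and *Mkx* were the most alike pair (0.922), followed by *Sp7* and *Alpl* (0.823).

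Other genes of the same programs were taken as lists. Their counts stand beside 8.51% higher and 12.7% lower over all genes with TGFß1, and 4.61% higher and 8.05% lower with TNFα, and their medians beside 0.045 and 0.004. Of 26 osteoblast genes, 18 were tested, and with TGFß1 3 rose and 1 fell, with a median log2 fold-change of 0.174. *Tnfrsf11b*, which encodes osteoprotegerin, the decoy receptor that restrains osteoclasts, rose by 5.13 (SE 0.75, q = 4.76e-04), with 2 of the 3 control arrays above background. *Dmp1*, an acidic matrix protein of osteocytes, was detected on all 3 TGFß1 arrays and on no control array, and was at least 8.14-fold higher (fitted difference 4.94, SE 0.43). Like *Cilp*, *Dmp1* was tested through the TGFß1 arrays alone. *Twist1*, which restrains RUNX2, fell by 1.18. With TNFα, 1 osteoblast gene rose and 4 fell (median −0.052). *Pdpn* (podoplanin) rose by 1.53, and *Phex*, *Twist1*, *Col1a1* and *Col1a2* fell by 1.25, 0.94, 0.80 and 0.66, the last 2 being the chains of type I collagen.

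Of 24 chondrocyte genes, 10 were tested. With TGFß1, *Prg4*, which encodes the joint lubricant lubricin, rose by 4.42 (SE 0.41, q = 1.90e-05), with 1 of the 3 control arrays above background, and *Gdf5* and *Trps1* fell (median over the list 0.25). *Gdf5*, a growth factor of joint formation, was not above background on any TGFß1 or TNFα array, and was at least 1.67-fold lower with TGFß1 and at least 1.67-fold lower with TNFα. *Gdf5* was tested through the control arrays alone. It was the 1 chondrocyte gene called with TNFα (median 0.06). The cartilage collagen gene *Col2a1*, a target of SOX9, differed from control by 0.22 with TGFß1 (SE 1.85, q = 0.943).

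Of 16 tendon genes, 12 were tested, and with TGFß1 4 rose and 2 fell (median 0.27). *Tnc*, the matrix protein tenascin-C, rose by 3.20 (SE 0.27), *Egr2* by 1.18 and the collagen gene *Col5a1* by 0.79. The proteoglycan gene *Dcn* (decorin) fell by 1.82 and *Col12a1* by 0.93. With TNFα, 2 rose and 3 fell (median 0.02). *Tnc* rose by 2.57 and *Dcn* by 1.91, while *Fmod* (fibromodulin) fell by 3.31, *Col12a1* by 1.53 and *Col5a1* by 1.22. *Dcn* and *Col5a1* were thus called in opposite directions with the 2 cytokines.

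Of 10 genes that control mineralization, 8 were on the array and 6 were tested. With TGFß1, 2 rose (median −0.17): *Slc20a1*, a phosphate transporter, by 2.76 (SE 0.19) and *Enpp1*, which makes the mineralization inhibitor pyrophosphate, by 2.15 (SE 0.23). With TNFα, *Slc20a2* and *Slc20a1* rose by 0.72 and 0.645, and *Mgp* (matrix Gla protein, an inhibitor of mineralization) fell by 2.83 (median −0.24). Of 15 paralogs and partners of the members, 9 were tested. *Cbfb*, which encodes the partner subunit shared by all RUNX proteins, rose with TGFß1 by 0.62 (SE 0.11, q = 0.00204), and the paralog *Runx3* differed by 0.08 (SE 0.36, q = 0.9). With TNFα, *Thbs2* and *Thbs3*, relatives of *Comp*, fell by 0.98 and 0.75 (median of the list −0.36). With IL-1β and with IL-6, 0 genes of any of the 5 lists were called, where 0.355% and 0.0961% of all genes were. *Phospho1*, in the osteoblast and mineralization lists, was above background on all 3 IL-1β arrays and on no array of the other groups. It was tested through the IL-1β arrays alone, and was at least 1.32-fold higher than control, not called. Of the 53 distinct genes tested in the lists, 6 with IL-1β and 8 with IL-6 had an unadjusted p below 0.05. Of all 13523 genes, 585 and 527 did (4.33% and 3.9%), a smaller share in both cases. With TGFß1, quantile normalization lost the calls of *Col5a1* and *Cbfb* and added *Thbs2*, called lower, so that the paralogs and partners went from 1 higher and 0 lower to 0 higher and 1 lower. With the median of each array as the scale, the tendon genes called higher with TGFß1 went from 4 to 2 (without *Col5a1* and *Egr2*), and *Trps1* was lost as well. On that scale *Col1a2* and *Slc20a1* were lost with TNFα and *Sp3*, a relative of SP7, was added, called lower.

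**Figure D4:**
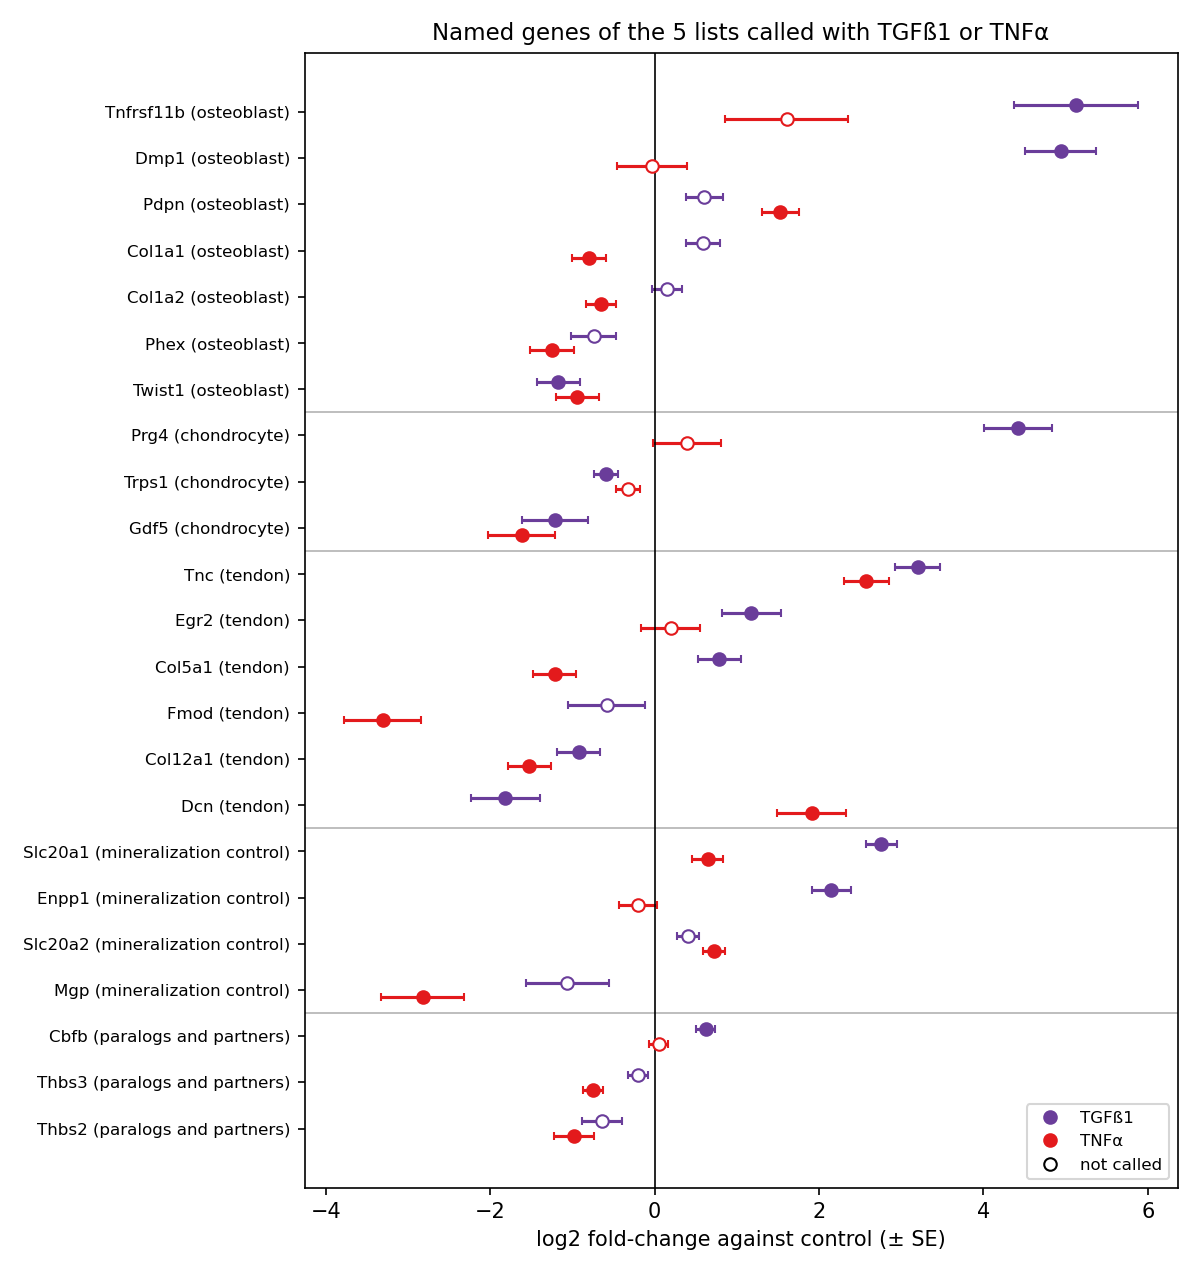
Log2 fold-change against control with SE (horizontal axis) for named genes of the 5 lists that were called with TGFß1 or with TNFα (rows, list in brackets), with filled symbols where called. *Tnfrsf11b*, *Dmp1* and *Prg4* lie between 4.42 and 5.13 with TGFß1, and *Dcn* and *Col5a1* lie on opposite sides of 0 with the 2 cytokines.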

How the data were processed

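RNA of the MEFs was labelled with Cyanine 3, and the authors scanned the arrays and extracted them with Agilent Feature Extraction 10.7.3.1. The deposited intensity values are processed signals, corrected for background by that software and not normalized between arrays. Probes were named with a RefSeq table of GRCm38.p6, and since the array's design predates it, no probe position is given. Of the 62976 spots per array, 59305 are not controls. Non-uniform and outlier spots were left out, log2 signals were averaged per probe, and each array was scaled by subtracting the 75th percentile over its spots that are not controls. A probe counted as well above background where at least 0.5 of its spots carried that mark. Tests used limma 3.58.1 in R 4.3.3 in 1 fit over all 15 arrays, two-sided, with the q-value from Benjamini-Hochberg adjustment over the 29334 probes that reached this mark on all 3 arrays of some group. Percentages of genes called count the brightest probe of each named gene. The script was tested on simulated data.

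Against a group with no array above background, the fold-change is a bound. It sets the brighter group's mean against a floor, averaged over the dim arrays, which on each array is its lowest value above background, or the probe itself if higher. Arrays are described by the study as 3 independent experiments, but the labels tie no array to an experiment. In each run of 5 label numbers every group has 1 array. Deviations from group means correlated at r over 0.1 in 12 of 30 pairs within a run and 28 of 60 pairs across runs. Once the slide was taken out, this held for 30 of 30 and 2 of 60, so that arrays of a run deviated together. The main comparisons, as planned from the labels and the study's methods, have no pairing, and values with slide and runs as blocks stand beside each result of a member whose call they change. Alternatives changed the background correction (normexp with an offset of 50, on median signals, since the mean signals were not used here), scaling, filters, block terms, groups in the fit and arrays left out.

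The genes and lists were chosen with earlier results of these data known. Every member is described. From each list and comparison with control, up to 4 called genes with the largest change are named, except a few that are counted but not reported here, and for each member tested the 3 genes of highest correlation. *Col2a1*, *Runx3*, *Sp3*, *Krt18* and *Phospho1* were named after their values were seen.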

Additional observations from a re-analysis of the deposited data

How the results depend on the processing

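The calls of *Runx1* and *Mkx* with TGFß1 and of *Runx2* in TNFα against TGFß1 held in all 14 alternative settings that kept the fold-change criterion of 1.5 and in the 6 fits that left out 1 array. Not all of these settings could change a member. The deposited matrix equals the scanner values, so its fit repeats the main one. Keeping marked spots left member values as they were, since 0 spots of members were marked. With TGFß1, 2 of the 8 genes were called with normexp (*Runx1* and *Mkx*), 3 with the median of each array as the scale (*Runx1*, *Cilp* and *Mkx*) and 2 at an absolute fold-change of at least 2 (*Runx1* and *Cilp*, without *Mkx*), and 3 to 5 without 1 array. With TNFα, 0 were called with normexp, with the median scale, with no filter on dim probes and at an absolute fold-change of at least 2, and 0 to 2 without 1 array (0 without control 11, TNFα 4 or TNFα 9, and 2 without control 6). The slide as a block gave 3 (*Runx1*, *Alpl* and *Comp*). With the runs of label numbers as a replicate block, 2 were called with TNFα (*Runx1* and *Comp*), and 3 with runs and slide together; the runs alone changed no other count by over 1.5 times. With TNFα against TGFß1, 1 was called (*Runx2*) with normexp and 1 where probes had to be above background on all 15 arrays, a filter that leaves out *Alpl* and *Cilp*. With IL-1β against TGFß1, 2 were called in a fit of these groups alone. Beside these member counts, 2871 of all 13523 genes were called with TGFß1 in the main fit and 2223 with the median scale. With TNFα 1713 and 1477 of all genes were called, so calls over all genes fell on that scale too. Counts over all genes with normexp, other filters, other groups in the fit or arrays left out are not given here. The alternatives for comparisons of IL-1β and IL-6 with TGFß1 or TNFα were added after seeing the data. Differences that changed sign were all uncalled: *Cilp* with TNFα (0.057 with normexp), *Sp7* with TNFα (−0.044 with the slide block, −0.038 with slide and replicate block) and *Sp7* with IL-1β (−0.043 with quantile normalization, −0.062 with the median scale). Leaving out 1 array also moved uncalled differences across 0, with ranges of −0.038 to 0.824 (*Sp7*, TNFα), −0.185 to 0.356 (*Sox9*, TNFα), −0.426 to 0.48 (*Sp7*, IL-1β), −0.387 to 0.504 (*Sp7*, IL-6), −0.192 to 0.348 (*Sox9*, IL-6), −0.098 to 0.128 (*Mkx*, IL-6) and −0.044 to 0.522 (*Comp*, IL-6), and, for TNFα against TGFß1, −0.387 to 0.318 (*Sp7*) and −0.136 to 0.114 (*Comp*). The cause of these changes was not tested. The median scale moved the median difference of all genes from −0.047 to −0.163 for TNFα against TGFß1. The number of arrays and, for *Alpl*, *Cilp*, *Scx* and *Tnmd*, signal near background limit the precision. The probes of *Sp7* and *Alpl* other than the representing ones gave no signal above background on any array.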
